A study of Mus musculus with 219 samples.

Results

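The genes described are 10 subunits of the Polycomb repressive complexes, chosen by symbol from the 32285 genes of each count table: Ezh1, Ezh2, Eed, Suz12, Jarid2, Mtf2, Ring1, Rnf2, Bmi1 and Pcgf6. All 10 were present in the tables of blastomeres and of blastocysts. They were measured in mouse embryos made by intracytoplasmic sperm injection (ICSI) of a CD1 sperm head into a B6C3F1 oocyte of gonadotropin-primed females, with sperm from the same cryopreserved batch. The sperm head was placed opposite the meiotic spindle (contralateral ICSI, the V pole), beside it (the group the labels call isolateral, here ipsilateral ICSI, the A pole) or at the equator between the poles (equatorial ICSI). Every day of ICSI covered all of these sites. All embryos were cultured in KSOM medium with amino acids. By label these groups differed in the site of injection and, as 2-cell embryos, in their spread over the plates. On plate 1 were 18 contralateral, 13 ipsilateral and 11 equatorial 2-cell embryos, and on plate 2 were 3, 8 and 2 in the same order. In the 2-cell embryos the sister blastomeres were separated and sequenced singly. Both sisters passed the minimum of detected genes in 55 pairs (21 contralateral, 21 ipsilateral and 13 equatorial). Sisters cultured singly to the blastocyst stage gave 19 pairs of twin blastocysts (6, 7 and 6 pairs in the same order), and embryos that were never bisected gave 31 intact blastocysts (11, 8 and 12). The embryo was the replicate throughout, with the counts of both sisters or both twins added. Nothing in the labels ties an embryo to its oocyte donor or day of injection, so p-values measure the spread between embryos.

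Polycomb repressive complexes keep developmental genes silent. Polycomb repressive complex 2 (PRC2) places methyl groups on histone H3 through Ezh2 or its paralog Ezh1, with Eed and Suz12 as obligate partners and Jarid2 and Mtf2 as accessory subunits that help to bring it to its targets. Polycomb repressive complex 1 (PRC1) attaches ubiquitin to histone H2A through Ring1 or Rnf2, each paired with a PCGF protein such as Bmi1 in canonical PRC1 or Pcgf6 in a variant form. The early mouse embryo inherits mRNA stored by the oocyte, most of which is degraded as its own genome becomes active, and by the blastocyst stage the first lineages, trophectoderm, epiblast and primitive endoderm, have formed.

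Levels are given as CPM, the count of a gene scaled to a common library total, which is a share of the counted RNA and not an amount per embryo. Total counts ranged from 360474 to 2100561 in blastomeres, from 713410 to 2161062 in single twins and from 234099 to 1254428 in intact blastocysts. A level resting on 3 counts was 1.12 CPM in the median 2-cell embryo, 1.36 in the median twin pair and 4.25 in the median intact blastocyst. These floors cover counting error only, since the libraries carried no molecular identifiers. Every blastocyst was assigned to plate 2, as were 13 of the 2-cell embryos, while the other 42 were on plate 1. The study read some blastomere libraries as paired ends and others as single ends, and the blastocysts as single ends only. Of the paired reads it kept the first, trimmed to the length of the others. Read type is therefore partly joined with stage too. Marker genes of the trophectoderm and the oocyte set the stages apart as labelled. The summed level of 6 trophectoderm genes ranged from 36.4 to 221 CPM in 2-cell embryos and from 3002 to 7063 CPM in intact blastocysts. That of 6 genes transcribed in the oocyte ranged from 3103 to 4779 CPM in 2-cell embryos and 0 to 403 CPM in intact blastocysts. The sum of 5 epiblast genes did not separate the stages. Its mean was 192.8 CPM in 2-cell embryos (89.3 to 311.4) and 145 CPM in intact blastocysts (28.05 to 299). For 5 primitive endoderm genes the means were 54.9 and 315 CPM in the same order, with overlapping ranges.

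The first comparison asked how the Polycomb genes changed between the 2-cell embryo and the blastocyst. All 4 core subunits of PRC2 fell, both accessory subunits rose, and of the 4 PRC1 genes Rnf2, Bmi1 and Pcgf6 fell while Ring1 rose. Thus 3 members were higher and 7 were lower in intact blastocysts (edgeR's quasi-likelihood test, adjusted p under 0.05 over all genes tested), where 35.5% of the 14095 genes tested were called higher and 48.7% lower. Twin blastocysts gave the same split, 3 higher and 7 lower, where 37.2% of 14786 genes were called higher and 47.6% lower. With 84.2% and 84.8% of genes called, the number of members called is close to the background, and their sizes and directions are what the data add. Ring1 did not pass the filter on low counts among 2-cell embryos alone and entered these fits through the blastocysts, where it is high, so its call had to be a rise and supports nothing by itself. Both stage comparisons used the same 2-cell embryos, so their values are given side by side and do not count as independent. The fits used TMM scaling and CPM the library total, so fitted folds are not ratios of the CPM beside them. Each fitted fall was larger than the ratio of mean CPM, and the fitted rises of Jarid2 and Mtf2 were smaller. In intact blastocysts that ratio gave falls of 2.63-fold for Eed and 2.21-fold for Rnf2. It gave rises of 3.98-fold for Jarid2 and 3.02-fold for Mtf2.

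The sequence upstream of the RefSeq start is shown for the 3 genes that fell with no overlap between the stages (Bmi1, Ezh2 and Suz12) and for the 3 that rose (Jarid2, Mtf2 and Ring1), so that the members moving in opposite directions can be compared letter by letter. Each window holds the 250 bases before the start, 5′ to 3′ on the strand of the gene, from RefSeq's table for GRCm38.p6. Capitals mark the GC box (GGGCGG or CCGCCC), the CCAAT box (CCAAT or ATTGG) and the E-box (CACGTG), searched on both strands, and adjoining or overlapping boxes run together.
Bmi1: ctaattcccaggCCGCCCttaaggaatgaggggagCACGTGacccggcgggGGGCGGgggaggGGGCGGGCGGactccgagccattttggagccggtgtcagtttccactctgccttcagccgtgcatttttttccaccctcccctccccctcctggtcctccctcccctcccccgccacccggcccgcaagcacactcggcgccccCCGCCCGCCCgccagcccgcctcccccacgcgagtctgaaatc
Ezh2: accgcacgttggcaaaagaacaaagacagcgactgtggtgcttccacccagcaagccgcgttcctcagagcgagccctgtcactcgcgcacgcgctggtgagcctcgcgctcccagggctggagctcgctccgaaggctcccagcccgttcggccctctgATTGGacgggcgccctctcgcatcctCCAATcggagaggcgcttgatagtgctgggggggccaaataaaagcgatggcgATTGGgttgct
Suz12: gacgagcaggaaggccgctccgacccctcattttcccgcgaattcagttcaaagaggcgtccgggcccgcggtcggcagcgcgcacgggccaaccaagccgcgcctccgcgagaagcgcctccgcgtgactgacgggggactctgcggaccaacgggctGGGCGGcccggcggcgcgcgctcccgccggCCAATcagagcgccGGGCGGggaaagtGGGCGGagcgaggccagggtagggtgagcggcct
Jarid2: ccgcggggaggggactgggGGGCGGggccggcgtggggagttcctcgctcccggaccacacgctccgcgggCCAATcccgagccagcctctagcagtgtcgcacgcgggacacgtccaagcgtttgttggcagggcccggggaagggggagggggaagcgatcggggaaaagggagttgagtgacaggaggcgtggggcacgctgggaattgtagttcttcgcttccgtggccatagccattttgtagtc
Mtf2: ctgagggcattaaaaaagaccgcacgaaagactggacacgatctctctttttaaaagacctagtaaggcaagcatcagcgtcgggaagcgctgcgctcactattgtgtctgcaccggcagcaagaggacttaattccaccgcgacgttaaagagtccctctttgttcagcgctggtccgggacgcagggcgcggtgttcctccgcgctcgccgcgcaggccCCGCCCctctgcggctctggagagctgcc
Ring1: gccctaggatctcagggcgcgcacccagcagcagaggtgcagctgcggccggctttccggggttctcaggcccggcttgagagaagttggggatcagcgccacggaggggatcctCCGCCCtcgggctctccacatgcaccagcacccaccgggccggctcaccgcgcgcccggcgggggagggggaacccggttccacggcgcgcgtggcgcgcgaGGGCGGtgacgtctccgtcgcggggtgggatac
The windows lie at chr2:18676768-18677017 on the plus strand for Bmi1, chr6:47595031-47595280 on the minus strand for Ezh2 and chr11:79992856-79993105 on the plus strand for Suz12. Those of the genes that rose lie at chr13:44730524-44730773 (plus) for Jarid2, chr5:108065424-108065673 (plus) for Mtf2 and chr17:34024681-34024930 (minus) for Ring1. In the GENCODE M21 annotation the Ezh2 and Jarid2 genes begin further upstream, at chr6:47595341 and chr13:44729474. Their windows therefore lie inside the gene by that annotation. All 6 were rich in CG dinucleotides, with 21, 23 and 37 in Bmi1, Ezh2 and Suz12 and 23, 23 and 30 in Jarid2, Mtf2 and Ring1, against a median of 6 over the 32851 windows of the table. The table held 12 windows for the 10 members, Jarid2 and Mtf2 having 2 each, and the second Mtf2 window, at chr5:108077915-108078164, had 2 CG dinucleotides. A GC box was in 8 of the 12 windows and in 32.7% of all windows, and it was present both in genes that fell (Suz12, Bmi1, Rnf2, Pcgf6) and in genes that rose (Jarid2, Mtf2, Ring1). A CCAAT box was in 4 of the 12 and in 33.8% of all, the E-box in Bmi1 and in 6.02% of all, and a TATA box (TATAAA) in the second Jarid2 window and in 12.4% of all. The ETS (CCGGAAG), CRE (TGACGTCA) and NRF1 (GCGCATGC) words were in none of the 12, against 6.91%, 1.55% and 2.26% of all windows. These matches are descriptions of letters, and binding at them was not measured.

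Among the enzymes of PRC2, Ezh2, the main methyltransferase of dividing cells, ranged from 453 to 1034 CPM in 2-cell embryos (median 769), from 46.9 to 214 CPM in intact blastocysts (median 121.3) and from 114.1 to 263 CPM in twin blastocysts (median 206). The lowest 2-cell embryo lay above every blastocyst. Its log2 difference was −2.91 ± 0.09 (SE) in intact blastocysts (edgeR, adjusted p = 1.84e-50), a 7.49-fold fall, and −2.16 ± 0.08 in twins (adjusted p = 8.22e-40), a 4.46-fold fall. Ezh1, the paralog with weaker methyltransferase activity, had a median of 97.9 CPM in 2-cell embryos (36.5 to 157), 20.5 in intact blastocysts (0 to 64.7) and 31.5 in twins (12.7 to 46.8). Its ranges overlapped, and 1 of the 31 intact blastocysts had no count. The fitted falls were 5.07-fold (log2 −2.34 ± 0.20, edgeR adjusted p = 6.26e-19) and 3.99-fold (log2 −1.997 ± 0.15, adjusted p = 9.24e-21).

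Suz12, the scaffold on which PRC2 is assembled, ranged from 899.9 to 1556 CPM in 2-cell embryos (median 1084), from 106.8 to 730.0 CPM in intact blastocysts (median 272) and from 142 to 345 CPM in twins (median 266). The blastocysts of both kinds lay wholly below the 2-cell embryos, in 50 of 50. The differences were log2 −2.25 ± 0.09 (4.75-fold, edgeR adjusted p = 1.28e-42) and −2.32 ± 0.06 (4.99-fold, adjusted p = 3.59e-50). Eed, which binds the methyl mark and stimulates the enzyme, ranged from 162 to 419.7 CPM in 2-cell embryos (median 279), from 16.03 to 176 CPM in intact blastocysts (median 106.8) and from 107.3 to 180.4 CPM in twins (median 135). Its ranges overlapped at their edges. The fall of Eed was the smallest of the 4 core genes, 3.16-fold in intact blastocysts (log2 −1.66 ± 0.10, edgeR adjusted p = 4.39e-30) and 2.31-fold in twins (log2 −1.21 ± 0.08, adjusted p = 1.04e-23).

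The accessory subunits went the other way. Jarid2, a DNA-binding cofactor, ranged from 122.3 to 394 CPM in 2-cell embryos (median 206), from 435 to 1446 CPM in intact blastocysts (median 793) and from 653 to 988 CPM in twins (median 767). No blastocyst was as low as the highest 2-cell embryo. The rise was 3.17-fold in intact blastocysts (log2 1.66 ± 0.08, edgeR adjusted p = 6.29e-36) and 3.11-fold in twins (log2 1.64 ± 0.07, adjusted p = 3.56e-35). Mtf2, a Polycomb-like protein that reads DNA rich in CG, ranged from 57.9 to 349.9 CPM in 2-cell embryos (median 192), from 260.4 to 997 CPM in intact blastocysts (median 563) and from 619 to 903 CPM in twins (median 799). Every twin pair lay above every 2-cell embryo, while the ranges of intact blastocysts and 2-cell embryos overlapped. Its rise was 2.52-fold in intact blastocysts (log2 1.33 ± 0.09, edgeR adjusted p = 1.95e-24) and 3.48-fold in twins (log2 1.80 ± 0.09, adjusted p = 1.31e-30).

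In PRC1, Bmi1 had the largest fall of the 10 genes in both stage comparisons. This PCGF subunit of canonical PRC1 ranged from 723 to 1213 CPM in 2-cell embryos (median 947), from 0 to 82.1 CPM in intact blastocysts (median 52.4) and from 15.8 to 54.6 CPM in twins (median 40.98). The groups were far apart, and 2 intact blastocysts had no Bmi1 count. The falls were 23.5-fold (log2 −4.55 ± 0.13, edgeR adjusted p = 2.6e-54) and 28.5-fold (log2 −4.83 ± 0.08, adjusted p = 1.41e-64). Pcgf6, the PCGF subunit of a variant PRC1, had a median of 214 CPM in 2-cell embryos (58.1 to 328), 55.6 in intact blastocysts (0.871 to 212) and 54.6 in twins (28.2 to 76.5). Its ranges overlapped, and the fitted falls were 4.18-fold (log2 −2.06 ± 0.15, edgeR adjusted p = 2.1e-23) and 4.82-fold (log2 −2.27 ± 0.11, adjusted p = 6.72e-33).

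The ubiquitin ligase Rnf2 (also called Ring1b) had a median of 321 CPM in 2-cell embryos (185 to 428), 136 in intact blastocysts (62.7 to 227) and 125.7 in twins (85.95 to 261). Its ranges overlapped and its fall was the smallest among the genes that fell in intact blastocysts, 2.63-fold (log2 −1.40 ± 0.09, edgeR adjusted p = 7.31e-27), with 2.86-fold in twins (log2 −1.52 ± 0.09, adjusted p = 6.84e-27). Its paralog Ring1 was barely detected in the 2-cell embryos. Of the 55 2-cell embryos, 48 had no Ring1 count, and the 31 counts in the table came from 7 of the 110 blastomeres. The levels ran from 0 to 3.64 CPM in 2-cell embryos, from 0 to 43.4 CPM in intact blastocysts (median 15.4, with 3 of 31 at 0) and from 1.53 to 23.4 CPM in twins (median 13.2, none at 0). The ranges overlapped at the low end only. The mean level was 63.1 times that of 2-cell embryos in intact blastocysts and 53.5 times in twins, and the fitted log2 differences were 5.40 ± 0.50 and 5.36 ± 0.54. Ring1 passed the filter on low counts through the blastocysts alone, so its rise is given as a description and without a p, and with so few counts in 2-cell embryos the fitted values depend on the prior count of the fit.

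**Figure D1:**
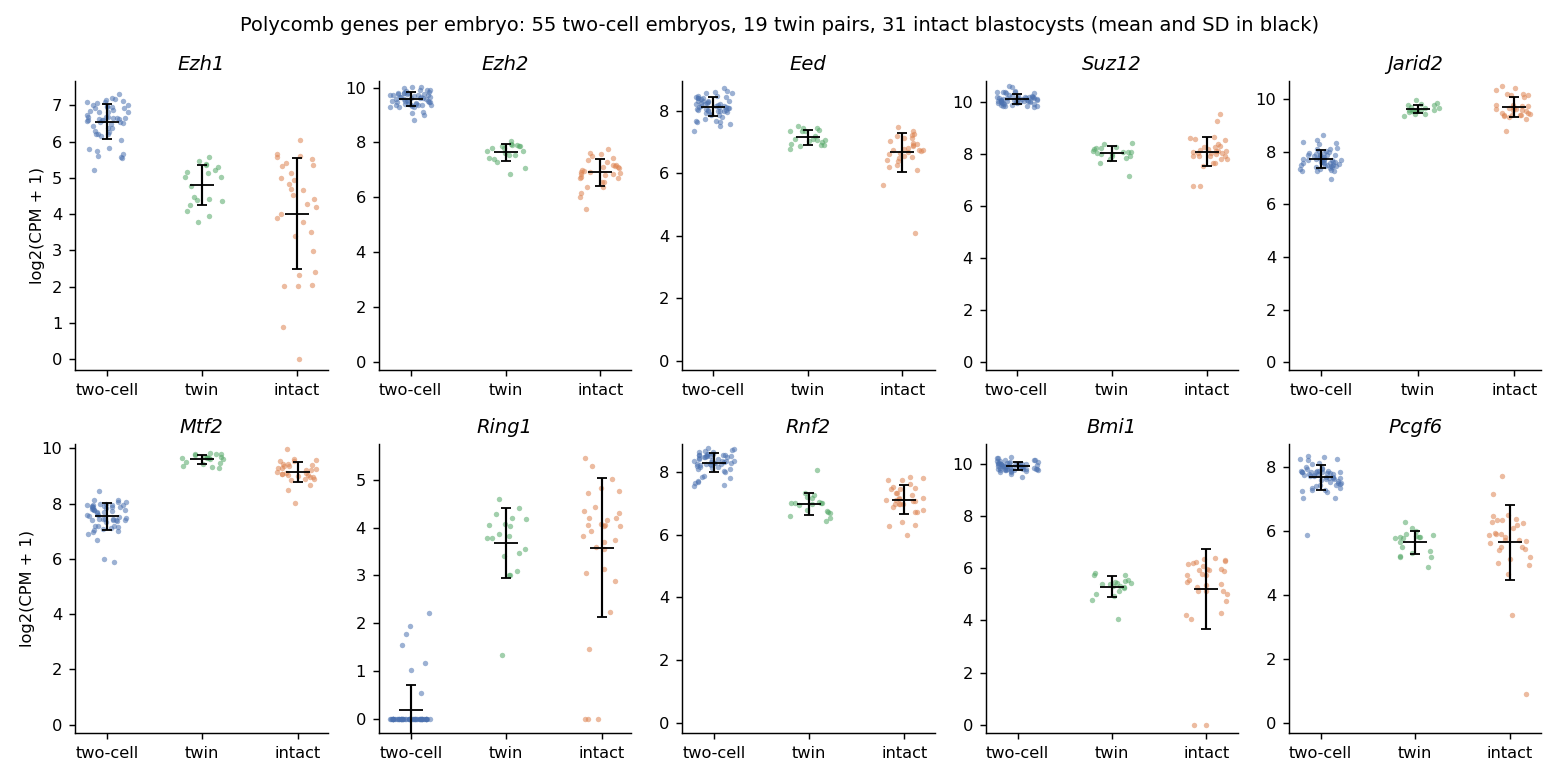
Level of each gene as log2 of CPM plus 1 per embryo in the 55 2-cell embryos, 31 intact blastocysts and 19 twin pairs. Each point is 1 embryo, and the mean and SD are in black. Bmi1, Ezh2 and Suz12 lie lower in all blastocysts than in any 2-cell embryo, Jarid2 lies higher, and Ring1 is at 0 in 48 2-cell embryos.

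The 2-cell embryos were most alike in Bmi1 and Suz12, the members with the most counts. Their coefficient of variation was 10.99% for Bmi1, 13.03% for Suz12 and 17.1% for Ezh2, against 2.04%, 1.89% and 2.29% from counting alone. Ezh1, with the fewest counts apart from Ring1, had 30.1% against 6.73%. Among intact blastocysts the lowest was 24.1% for Mtf2 (5.75% from counting), and Suz12 had 41.95% against 8.73%. Bmi1 there had 48.5% against 32.2%, and Ezh1 75.6% against 47.5%. The counting values took an embryo with no count as having 1. This applied to 2 intact blastocysts for Bmi1 and 1 for Ezh1, so their counting values depend in part on that setting. In twin pairs Jarid2 and Mtf2 varied least, by 11.1% and 11.2%. The 2-cell embryos of the plates had close means for Suz12 (1108 ± 159 CPM, n = 42, and 1113 ± 88.3 CPM, n = 13) and for Bmi1 (959 ± 111.2 and 973 ± 89.2 CPM). Ezh1 was at 104 ± 28.4 CPM on plate 1 and 76.0 ± 21.7 CPM on plate 2, and Eed at 272 ± 57.4 and 319.8 ± 45.5 CPM.

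Set against all genes, the ranges of intact blastocysts and 2-cell embryos were disjoint for 4 of the 10 members (Ezh2, Suz12, Bmi1, Jarid2) and for 13.7% of the genes tested. For twins they were disjoint for 5 of 10, Mtf2 being the fifth, and for 25.3% of the genes tested. With TMM scaling the median log2 difference of all genes was −0.44 for intact blastocysts and −0.38 for twins. Relative to that median, the members that fell lay between −4.11 (Bmi1) and −0.95 (Rnf2) in intact blastocysts and between −4.45 (Bmi1) and −0.83 (Eed) in twins. Those that rose lay between 1.78 (Mtf2) and 5.85 (Ring1), and between 2.02 (Jarid2) and 5.74 (Ring1). The direction of the members was the same under every scaling tried, but Ring1 could only rise and so adds nothing to this. For intact blastocysts the all-gene median was −0.39 with RLE factors, −0.16 with library size only and 0.0021 with DESeq2, which tested more genes. For twins it was 0.02 with RLE factors. The sizes moved with the alternatives. In twins the log2 difference ran from −2.16 to −1.76 for Ezh2, from 1.64 to 2.03 for Jarid2 and from 1.80 to 2.20 for Mtf2. Their main values lay at the lower end of these ranges, giving the largest fall and the smallest rises. The main falls of Ezh1, Suz12, Rnf2, Bmi1 and Pcgf6 in twins also lay near the largest of their ranges. That of Eed lay inside a range of −1.32 to −0.82. In intact blastocysts the ranges were −2.94 to −2.61 for Ezh2, 1.52 to 2.05 for Jarid2 and 1.21 to 1.61 for Mtf2. Since plate and stage are partly joined, the fits were repeated with the 13 2-cell embryos of plate 2 alone. All 10 members were again called in the same direction, Ring1 with the limit already given, with log2 differences in intact blastocysts of −2.92 for Ezh2, −1.89 for Ezh1, −1.86 for Eed, −2.27 for Suz12, 1.74 for Jarid2 and 1.43 for Mtf2. For the PRC1 genes they were 6.34 for Ring1, −1.43 for Rnf2, −4.51 for Bmi1 and −2.05 for Pcgf6. In whole blastocysts, fewer cells of a type and less RNA per cell cannot be told apart.

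**Figure D2:**
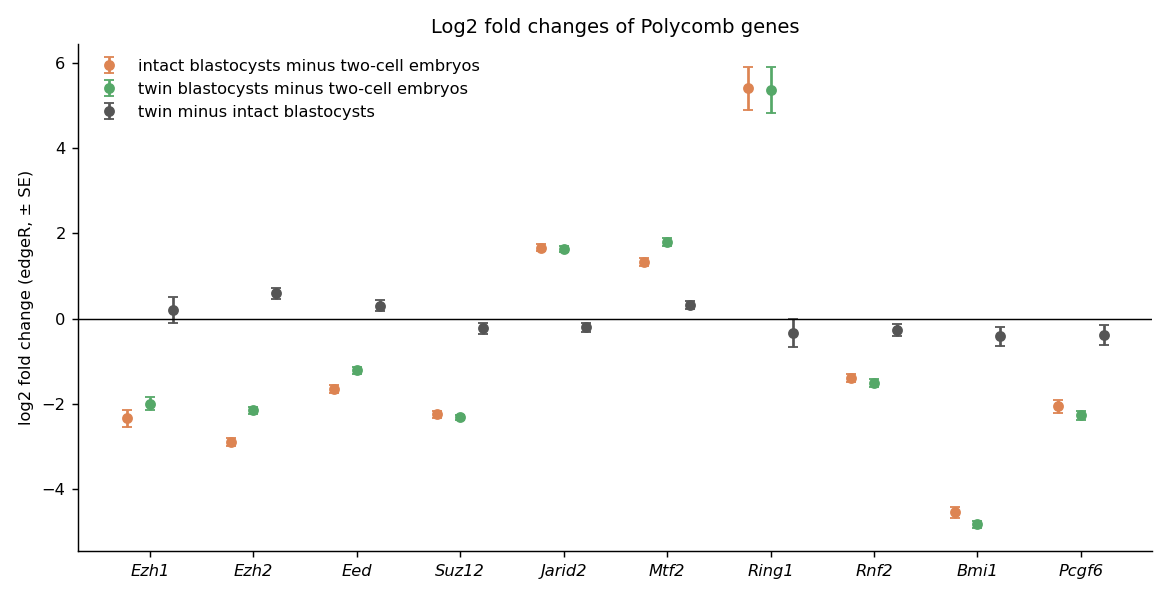
Log2 difference of each gene ± SE in 3 comparisons: intact blastocysts minus 2-cell embryos, twin blastocysts minus 2-cell embryos, and twin minus intact blastocysts. Ring1, Jarid2 and Mtf2 lie above 0 and the other 7 genes below it in both stage comparisons. The differences between twin and intact blastocysts stay within 1 of 0.

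To compare the genes with each other, levels were divided by exonic length and scaled to a common total (TPM). In 2-cell embryos the order was Bmi1 (mean 798 TPM), Suz12 (743), Ezh2 (381), Rnf2 (251), Eed (243), Pcgf6 (138), Mtf2 (113), Jarid2 (73.4), Ezh1 (43.3) and Ring1 (0.252). Suz12 was above Ezh2, and Ezh1 above Ring1, in all 55 embryos. The neighbours Rnf2 and Eed were in that order in only 32 of 55 embryos, and Bmi1 was above Suz12 in 39, so that the means of these neighbours lie within the spread of embryos. In intact blastocysts the accessory subunits led: Mtf2 (297 TPM) and Jarid2 (255) came before Suz12 (171), Rnf2 (99.6), Eed (81.2), Ezh2 (54.4), Pcgf6 (35.1), Bmi1 (34.99), Ring1 (13.8) and Ezh1 (8.97). Here Mtf2 was above Jarid2 in 21 of 31 embryos, Pcgf6 above Bmi1 in 12 and Ring1 above Ezh1 in 18, so none of these neighbours was separated by the spread. In twins Mtf2 (394 TPM) was above Jarid2 (232), and Jarid2 above Suz12 (153), in all 19 pairs. The neighbours Rnf2 (88.3 TPM) and Ezh2 (86.7) were in that order in 7 of the 19 pairs. Bmi1 thus went from the top of the list in 2-cell embryos to 28.4 TPM in twins, beside Pcgf6 (28.95 TPM, higher in 11 of 19 pairs).

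The share that each paralog held of its pair changed with stage for PRC1 and little for PRC2, as a description in TPM with no test. Ezh1 made up 10.3% ± 3.12 (SD, n = 55) of the summed Ezh1 and Ezh2 level in 2-cell embryos, 14.3% ± 10.8 (n = 31) in intact blastocysts and 11.7% ± 5.27 (n = 19) in twins. Ezh2 therefore remained the main enzyme transcript at both stages. Ring1 made up 0.107% ± 0.325 (n = 55) of Ring1 plus Rnf2 in 2-cell embryos, with a highest value of 1.53%. In blastocysts its share was 12.8% ± 8.96 (n = 31) in intact ones and 11.9% ± 5.04 (n = 19) in twins. Pcgf6 made up 14.9% ± 3.21 (n = 55) of Pcgf6 plus Bmi1 in 2-cell embryos, where the highest embryo reached 22.5%. In blastocysts the same share was 48.7% ± 19.8 (n = 31) in intact ones, with a range of 3.80 to 100%, and 50.5% ± 6.09 (n = 19) in twins, with a range of 35.9 to 59.4%. Every twin pair thus lay above every 2-cell embryo for this share, and the intact blastocysts overlapped with them.

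**Figure D3:**
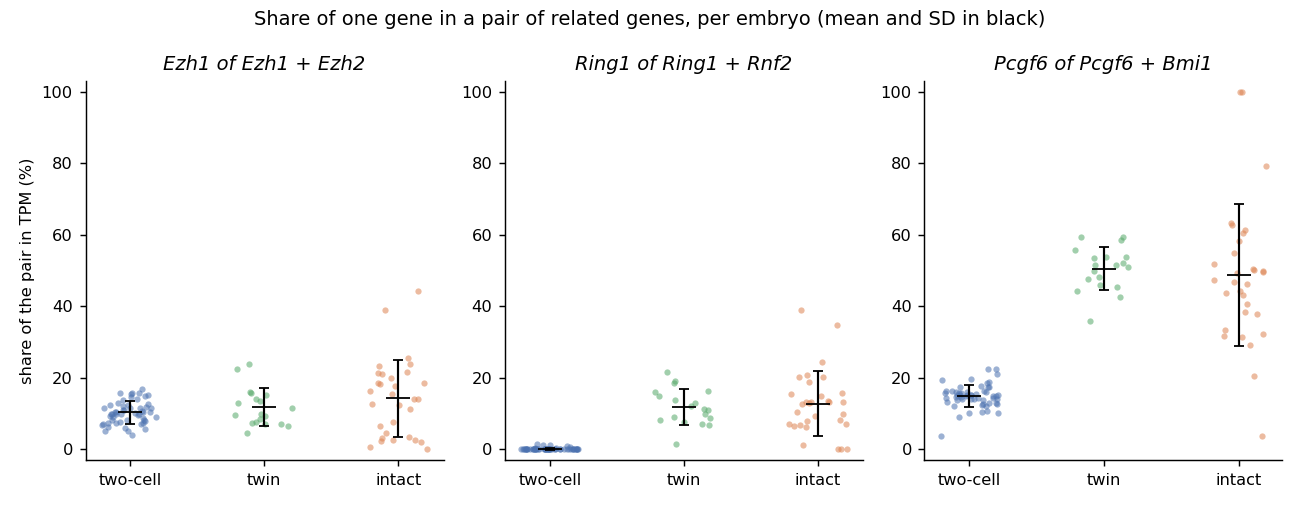
Share in percent of TPM held by Ezh1 of Ezh1 plus Ezh2, by Ring1 of Ring1 plus Rnf2 and by Pcgf6 of Pcgf6 plus Bmi1. Each point is a 2-cell embryo, intact blastocyst or twin pair, and the mean and SD are in black. Ring1 and Pcgf6 hold a larger share in blastocysts, with Pcgf6 at a median of 14.9% in 2-cell embryos, 47.3% in intact blastocysts and 51.6% in twins.

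The next comparison asked whether blastocysts grown from a single blastomere differed from intact ones. Ezh2 and Mtf2 were higher in twins and no member was called lower, where 19.9% of the 9985 genes tested were called higher and 21.8% lower. With 41.7% of those genes called in either direction, the number of members called does not exceed the background. Ezh2 ranged from 114.1 to 263 CPM in the 19 twin pairs (median 206) and from 46.9 to 214 CPM in the 31 intact blastocysts (median 121.3). The ranges overlapped, and the difference was 1.503-fold (log2 0.59 ± 0.12, edgeR adjusted p = 9.63e-05). Mtf2 ranged from 619 to 903 CPM in twins (median 799) and from 260.4 to 997 CPM in intact blastocysts (median 563). Its difference was 1.25-fold (log2 0.32 ± 0.09, edgeR adjusted p = 0.00389), with twins lying inside the wider range of intact blastocysts.

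The other 8 members did not pass the test in twins against intact blastocysts. Eed was nearest, with a log2 difference of 0.30 ± 0.13 (edgeR adjusted p = 0.0544), and DESeq2 called it (adjusted p = 0.00494). For Ezh1 the value was 0.21 ± 0.31, for Suz12 −0.23 ± 0.13 and for Jarid2 −0.20 ± 0.11. The PRC1 genes all had values under 0: −0.33 ± 0.33 for Ring1, −0.27 ± 0.13 for Rnf2, −0.42 ± 0.22 for Bmi1 and −0.38 ± 0.23 for Pcgf6, with adjusted p from 0.0993 to 0.44 (edgeR). Within the 3 ICSI sites, the log2 difference of Ezh2 was 0.53 in equatorial, 0.67 in contralateral and 0.58 in ipsilateral embryos, and that of Mtf2 was 0.21, 0.40 and 0.35. Both were called within ipsilateral embryos (edgeR adjusted p = 0.0135 and 0.022) and not within the other sites, where no member was called, and the sites were not shown to differ. Rnf2 (log2 −0.45) and Pcgf6 (log2 −0.67) were also called within ipsilateral embryos. Of all genes, 35.7% were called within ipsilateral, 7.81% within equatorial and 11.7% within contralateral embryos, so the 4 of 10 members called within ipsilateral embryos are close to the background.

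Twin and intact blastocysts differed in other measures that stand beside these results. The summed level of the 6 oocyte genes was 559 ± 84.7 CPM (SD, n = 19) in twins and 90.5 ± 105.2 CPM (n = 31) in intact blastocysts, with ranges of 330 to 683 and 0 to 403. In both kinds Bmp15, Oosp1 and Zar1 had a median of 0, as did Gdf9 and Zp3 in intact blastocysts. Of the 6, Dppa3 alone had a median above 0 in intact blastocysts. In twins 3 of the 6 had a median above 0. Whether these sums reflect RNA kept from the oocyte was not tested. The 5 epiblast genes summed to 367 ± 67.9 CPM in twins and 145 ± 68.3 CPM in intact blastocysts, with ranges of 248 to 497 and 28.05 to 299 and none at a median of 0. Trophectoderm genes summed to 3688 ± 231 and 4026 ± 914 CPM, primitive endoderm genes to 407 ± 64.2 and 315 ± 139.8 CPM, and cumulus cell genes to 7.05 ± 4.79 and 6.98 ± 20.7 CPM. The median total count was 2200256 per twin pair and 705837 per intact blastocyst. When all embryos were thinned to the smallest total, Ezh2 (log2 0.55) and Mtf2 (log2 0.38) were still called, and Jarid2 was called lower (log2 −0.27, edgeR adjusted p = 0.0423). The part of the oocyte and lineage genes in the Ezh2 and Mtf2 differences was not tested.

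The ICSI sites were compared to see whether the place of sperm entry moved the levels of these genes. In 2-cell embryos, Ring1 did not pass the filter on low counts, and 9 members were tested. Between contralateral and equatorial ICSI none of the 9 was called by edgeR, where 11.7% of the 14858 genes tested were called. An unadjusted p under 0.05 was found for 6 of the 9 and for 3609 of all genes tested. Between ipsilateral and equatorial ICSI Suz12 alone was called, where 6.07% of genes were called and 2760 genes had an unadjusted p under 0.05, as did Suz12 and Jarid2. Between contralateral and ipsilateral ICSI no member and 0% of genes were called, Ezh2 alone having an unadjusted p under 0.05 (log2 0.16 ± 0.08). In that comparison 658 genes had an unadjusted p under 0.05 and DESeq2 called 97. The first 2 comparisons share the equatorial embryos. DESeq2 called 4, 2 and 0 members in the 3 comparisons, and 10.4%, 5.93% and 0.439% of all genes it tested. The rank-sum permutation test on TPM called 2, 2 and 0 members, and 15.7%, 10.7% and 0% of genes.

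Suz12 ranged from 1053 to 1556 CPM in the 13 equatorial embryos (median 1197), from 906 to 1311 CPM in the 21 ipsilateral embryos (median 1035) and from 899.9 to 1518 CPM in the 21 contralateral embryos (median 1069.8). Equatorial embryos were the highest of the 3 groups in the median, and all ranges overlapped. The log2 difference from equatorial embryos was −0.23 ± 0.07 in ipsilateral (1.17-fold, edgeR adjusted p = 0.0242) and −0.15 ± 0.06 in contralateral embryos (adjusted p = 0.129). Within plate 1 the ipsilateral difference was −0.28 (edgeR adjusted p = 0.0169), and plate 2 held only 2 equatorial embryos. With the total count and the number of detected genes as covariates it was −0.04 (adjusted p = 0.857), and over the other alternatives and this one the adjusted p ran from 0.00227 to 0.857. Equatorial blastomeres had a median total of 1108741 counts and 11514 detected genes, ipsilateral ones 1530273 and 12164, and contralateral ones 1297280 and 12085.

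Jarid2 showed the same order of medians, 234 CPM in equatorial (181 to 394), 193 in ipsilateral (150.5 to 312) and 194 in contralateral embryos (122.3 to 348). The ranges overlapped and the log2 differences were −0.32 ± 0.12 (edgeR adjusted p = 0.0938) and −0.25 ± 0.11 (adjusted p = 0.157). Other members leaned the opposite way in contralateral embryos without passing the test. Pcgf6 had medians of 179 CPM in equatorial (58.1 to 302) and 231 CPM in contralateral embryos (131.1 to 328), with a log2 difference of 0.34 ± 0.12 (edgeR adjusted p = 0.0526). The corresponding differences were 0.27 ± 0.10 for Rnf2 (edgeR adjusted p = 0.0653), 0.17 ± 0.06 for Bmi1 (adjusted p = 0.0651) and 0.27 ± 0.10 for Eed (adjusted p = 0.0689), and DESeq2 called all of these and Pcgf6. For Ezh1, Ezh2 and Mtf2 they were −0.08 ± 0.16, 0.13 ± 0.09 and 0.19 ± 0.15. The approximate 95% interval of the contralateral minus equatorial difference reached no further than 0.58 from 0 for any of the 9. A 2-fold difference thus lay outside it for each.

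**Figure D4:**
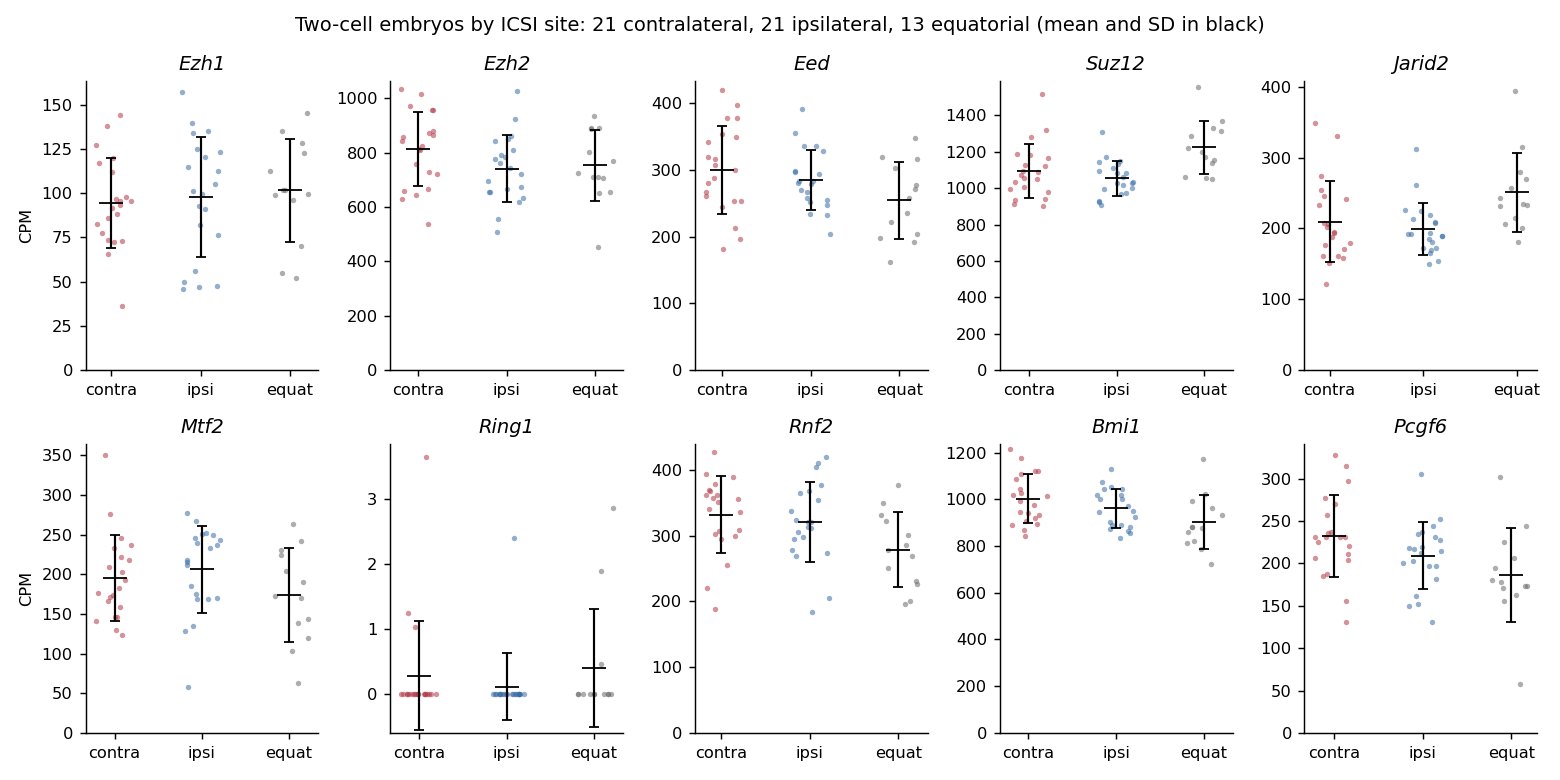
CPM of the 10 genes in each 2-cell embryo by ICSI site (13 equatorial, 21 ipsilateral and 21 contralateral embryos). The mean and SD are in black. The sites overlap for every gene, and Suz12 has medians of 1197, 1035 and 1069.8 CPM in that order.

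At the blastocyst stage no member was called for any pair of sites by edgeR, and neither was any gene (0% of 10995 tested in twins and 0% of 9165 in intact blastocysts). Between 338 and 754 genes had an unadjusted p under 0.05 in these 6 comparisons, and DESeq2 called at most 11 genes. In twins, 2 members had an unadjusted p under 0.05 between contralateral and equatorial ICSI (Mtf2, log2 0.24 ± 0.09, and Jarid2, 0.18 ± 0.09), none for ipsilateral against equatorial ICSI, and 3 for contralateral against ipsilateral ICSI (Jarid2, 0.22 ± 0.08; Mtf2, 0.19 ± 0.09; Rnf2, 0.39 ± 0.18). Mtf2 had medians of 854, 753 and 783 CPM and Jarid2 of 849.8, 752 and 767 CPM in contralateral, equatorial and ipsilateral twins, with overlapping ranges. In intact blastocysts the numbers with an unadjusted p under 0.05 were 0, 1 and 1, Jarid2 in both cases. DESeq2 and the exact or permutation rank-sum test on TPM called 0 members in all 6 comparisons. Jarid2 had a median of 667 CPM in ipsilateral (638 to 786), 828 in equatorial (435 to 1358) and 852 in contralateral intact blastocysts (594 to 1446). Ipsilateral blastocysts were the narrowest group and lay inside the other ranges. The contralateral minus ipsilateral difference of Jarid2 was 0.62 ± 0.20 on the log2 scale (edgeR adjusted p = 0.822). For the other members, the intervals in intact blastocysts were wide, reaching for Ring1 from −1.43 to 1.10 between contralateral and ipsilateral ICSI, which leaves a 2-fold difference inside the interval, as did those of Ezh1, Bmi1 and Pcgf6.

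The test of whether the site acted differently in twin and intact blastocysts called no member (0 of 10, edgeR F test of both interaction terms, 0% of 10689 genes called, and 0 members with an unadjusted p under 0.05). For the interaction of site with stage, 2.81% of 15682 genes were called and no member. Jarid2 alone had an unadjusted p under 0.05 (adjusted p = 0.291), its contralateral minus equatorial difference being 0.43 greater on the log2 scale in intact blastocysts than in 2-cell embryos.

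Sister blastomeres were then compared within their pairs, the distance being the absolute log2 ratio of CPM plus 1. Ring1 had a median distance of 0 because most pairs had no count. Of the other 9 members over the 55 pairs, Ezh2, Bmi1, Eed and Suz12 had the smallest median distances, 0.14, 0.17, 0.20 and 0.21, and no pair of sisters differed by over 2-fold in Ezh2, Suz12 or Bmi1. The median distance was 0.27 for Rnf2, 0.33 for Mtf2, 0.37 for Pcgf6, 0.40 for Jarid2 and 0.56 for Ezh1. More than 2-fold apart were the sisters of 10 pairs for Ezh1, 7 for Mtf2, 6 for Ring1, 4 for Jarid2, 2 for Pcgf6, and 1 each for Eed and Rnf2. The median embryo had 2890 counts of Suz12 and 260 of Ezh1, and the part of depth in this order was not tested. Of the sisters with a Ring1 count, none had a partner with one. Blastomeres of different embryos of the same site and plate had a median distance of 0.27 for Ezh2, 0.33 for Eed and 0.46 for Mtf2, larger than between sisters. For Suz12 (0.20), Bmi1 (0.18), Rnf2 (0.32), Jarid2 (0.41), Pcgf6 (0.38) and Ezh1 (0.54) the non-sister medians lay within 0.05 of the sister medians. These distances between embryos are a description and were not tested.

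No member was called for a difference in these distances between ICSI sites by limma. Between contralateral and equatorial pairs 0 of 9 members and 0.121% of 14858 genes were called, for ipsilateral against equatorial pairs 0 of 9 and 0.141%, and for contralateral against ipsilateral pairs 0 of 9 and 0%, with 0 members at an unadjusted p under 0.05 in each. A permutation of the site labels also called 0 members. The lowest p was that of Rnf2, with a distance lower in ipsilateral than in equatorial pairs (difference −0.18 ± 0.09, limma adjusted p = 0.45). The letters a and b of the sisters, which carry no order, were compared as well. Bmi1 ranged from 742 to 1293 CPM in the blastomeres a (median 958) and from 699.7 to 1723 CPM in the blastomeres b (median 937). Ezh2 had medians of 762 and 765 CPM, Suz12 of 1094 and 1051 CPM, and Jarid2 of 215 and 197 CPM. The letters overlapped for every gene, and Ring1 had a count in 3 blastomeres a and 4 blastomeres b. In the test 0 of 9 members and 0% of 18323 genes were called in blastomeres, and 0 of 10 members and 0% of 12103 genes in twin blastocysts, by edgeR with the embryo as a block, with 0 members at an unadjusted p under 0.05 in both. DESeq2 called 0 members in both as well. Twins of a pair differed by a median of 0.18 for Mtf2, 0.25 for Eed, 0.26 for Ezh2, 0.28 for Jarid2, 0.35 for Bmi1, 0.38 for Ezh1, 0.40 for Rnf2 and Suz12, 0.45 for Pcgf6 and 0.85 for Ring1. Mtf2 was thus the closest in twins but not in blastomeres, with a median count of 1833 per twin pair and 514 per 2-cell embryo. Suz12 had a larger median distance in twins (0.40) than in blastomeres (0.21), with 566 and 2890 counts. Twins of different embryos of the same site had medians no larger than those of pairs for Mtf2 (0.18), Jarid2 (0.22), Rnf2 (0.30), Suz12 (0.30) and Ring1 (0.76). Their medians were larger than those of pairs for Eed (0.29), Ezh2 (0.28), Bmi1 (0.36), Ezh1 (0.67) and Pcgf6 (0.46). These differences were not tested.

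**Figure D5:**
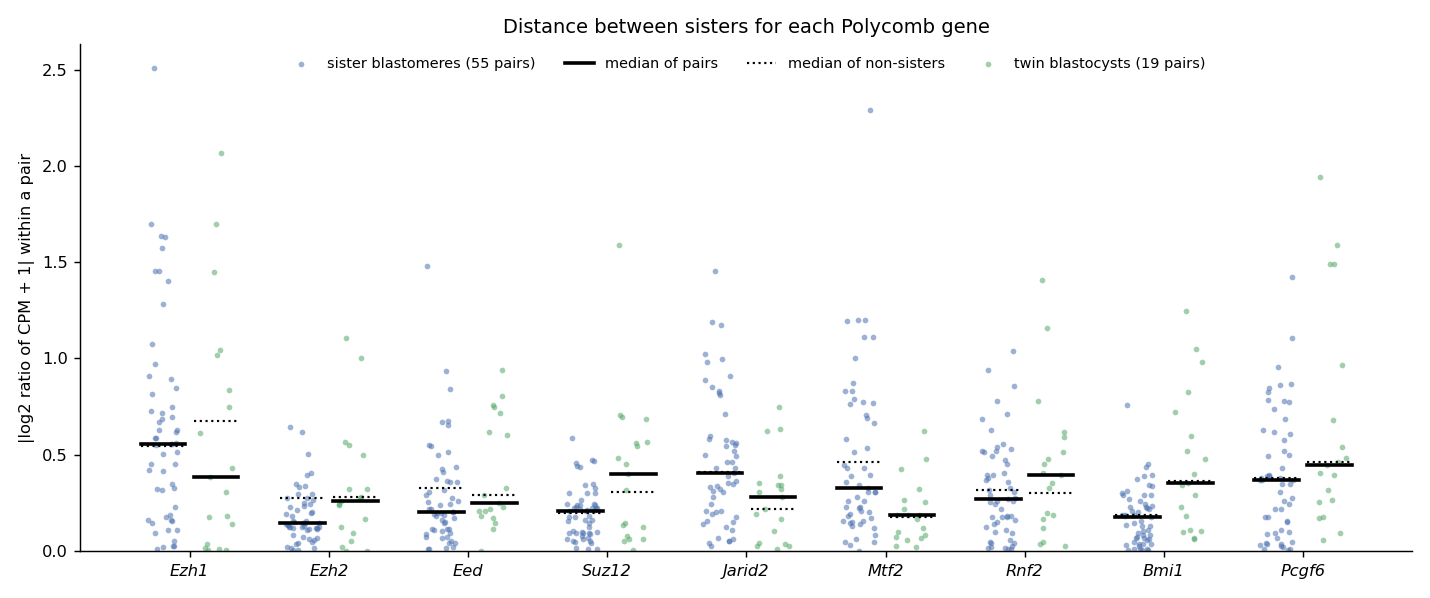
Absolute log2 ratio of CPM plus 1 between sister blastomeres of 55 pairs and between twin blastocysts of 19 pairs, for each gene except Ring1. Each point is a pair, and the solid bar is the median of pairs. The dotted bar is the median between non-sisters of the same site and plate. Ezh2, Suz12 and Bmi1 differ by under 2-fold in all pairs of blastomeres, and Ezh1 by over 2-fold in 10.

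The other Polycomb genes were taken from a list of 47, of which 46 were in the tables. In intact blastocysts 13 were higher and 26 lower than in 2-cell embryos, and 7 were not called (edgeR). Over all genes tested, 35.5% were called higher and 48.7% lower, so the number of list genes called is close to the background. The median log2 difference of the list was −0.57, against −0.44 for all genes, while the median of the 10 members was −1.86. In twins 10 were higher and 29 lower, where 37.2% of all genes tested were called higher and 47.6% lower. The median of the list was −0.65 there, against −0.38 for all genes and −1.76 for the members. Of the 14 other PRC1 genes, 6 were higher and 8 lower in intact blastocysts. Of the 7 other PRC2 genes tested, 2 were higher and 4 lower. Of the 16 genes of variant PRC1, 2 were higher and 9 lower, and of the 9 genes listed as opposing or related to Polycomb, 3 were higher and 5 lower.

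The 4 largest rises of that list in intact blastocysts were those of Epop, an accessory subunit of PRC2 (log2 5.76 ± 0.42), Cbx6, a chromobox protein of PRC1 (4.42 ± 0.50), Ehmt2, a methyltransferase of histone H3 (3.13 ± 0.30), and Pcgf2, the close paralog of Bmi1 (2.84 ± 0.40). Epop had a median of 0 CPM in 2-cell embryos (highest 22.1) and of 70.8 CPM in intact blastocysts (lowest 39.8). Pcgf2 rose from a median of 0.748 to 11.4 CPM, so that it remained below the 52.4 CPM of Bmi1 in the median intact blastocyst. The largest falls were those of Scml2, a germline-enriched PRC1 protein (log2 −8.58 ± 0.25), Phf1, a Polycomb-like protein (−4.53 ± 0.25), Pcgf1 (−3.97 ± 0.21) and Cbx2 (−3.48 ± 0.28). Scml2 had at least 278 CPM in every 2-cell embryo and a median of 0 CPM in intact blastocysts, where 5 of 31 had a count. All 8 were called by edgeR, but Cbx6 and Pcgf2 did not pass the filter on low counts among 2-cell embryos alone, nor Scml2 and Phf1 among intact blastocysts alone, and these entered the fit through the stage in which they are high. Phf1 shares 39.3% of its exonic bases with other genes, and its count is uncertain because strand was not used. Between twin and intact blastocysts 3 of the 44 tested were higher and 13 lower, against 19.9% and 21.8% of all genes tested, among them Pcgf5 (log2 0.78 ± 0.18), Wdr5 (0.52 ± 0.16), Phc3 (−1.57 ± 0.35) and Asxl2 (−1.18 ± 0.17), with adjusted p of at most 0.00735 (edgeR).

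In 2-cell embryos, 5 of 44 genes of the list were higher and 10 lower in contralateral than in equatorial embryos, and 4 were higher and 8 lower in ipsilateral embryos (edgeR), which share the equatorial group. Over all genes tested, 11.7% and 6.07% were called in either direction. With total count and detected genes as covariates, 8.20% and 0.747% of genes were called. Phc2, a Polyhomeotic subunit of PRC1, was lower in both, by −0.97 ± 0.14 (adjusted p = 3.76e-06) and −0.83 ± 0.15 (adjusted p = 0.000269) on the log2 scale. Rbbp7, a histone-binding partner of PRC2, was higher in contralateral embryos (log2 0.60 ± 0.10, adjusted p = 4.6e-05) and Wdr5 was lower (−0.72 ± 0.14, adjusted p = 0.000193). Kdm6b, a demethylase that removes the PRC2 mark, and Phf1 were lower in ipsilateral embryos (−0.78 ± 0.18 and −0.75 ± 0.18, adjusted p = 0.00508 and 0.00641). No gene of the list was called between contralateral and ipsilateral ICSI, for the site in twin or intact blastocysts, for the interactions, for the letters or for the distances by edgeR or limma.

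In GRCm38 with the GENCODE M21 annotation, Ezh1 lies at chr11:101191115-101226463, Ezh2 at chr6:47530139-47595341, Eed at chr7:89954654-89980983, Suz12 at chr11:79993106-80034123 and Jarid2 at chr13:44729474-44921643. Mtf2 lies at chr5:108065674-108109004, Ring1 at chr17:34020792-34024680, Rnf2 at chr1:151458004-151500955, Bmi1 at chr2:18677018-18686629 and Pcgf6 at chr19:47033617-47050906. Counts were of exons without regard to strand, and 5 members share exonic bases with a neighbour on the opposite strand: 6.93% for Mtf2 (Tmed5), 6.82% for Eed (E230029C05Rik), 3.83% for Rnf2 (Trmt1l), 3.6% for Suz12 (Gm26563) and 2.61% for Ezh2 (Gm26625). Reads in those bases cannot be assigned to a gene. The other 5, Ezh1, Jarid2, Ring1, Bmi1 and Pcgf6, share none.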

How the data were processed

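Single blastomeres and single blastocysts were sequenced after full-length cDNA synthesis (SMART-Seq Single Cell, Nextera XT, Illumina sequencing; no molecular identifiers). The deposited values are whole-number counts per gene, made by the authors with Trimmomatic 039, STAR 2.7.10b on GRCm38 and GENCODE M23, without strand. The study's STAR options asked for counts with reads at the same position counted once and for counts of all reads. If the former are the deposited ones, high counts can be compressed. Blastomeres with at least 9500 detected genes in both sisters (55 of 62 pairs) and blastocysts with at least 4000 were kept, and the counts of sisters or twins were added. The study also states a mitochondrial limit for blastomeres, which the main fits did not apply. A limit of 2% left 48 pairs and was run as an alternative. CPM used the library total, and TPM used the union of exons in GENCODE M21. Depth set the floors of 3 counts given in the text.

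Comparisons used edgeR 4.0.16 (quasi-likelihood, TMM, filterByExpr, Benjamini-Hochberg over all genes tested, threshold 0.05), with plate as a covariate in 2-cell embryos, ICSI site as a covariate between stages and between twin and intact blastocysts, and the embryo as a block between letters. Distances between sisters were tested with limma 3.58.1 at a pseudocount of 1 CPM. Alternatives were other size factors, no filter, DESeq2 1.42.0, thinning, plates or sites alone, covariates, other pair filters and 100000 permutations. Sisters of a number come from the same embryo by their labels. Scripts were tested on simulated data. The members and gene lists were chosen with earlier results of these data known, and all members are named throughout. Of the other Polycomb genes, the called ones named are the 4 largest rises and 4 largest falls to intact blastocysts, 2 each way between twin and intact blastocysts, and up to 3 by smallest adjusted p between ICSI sites. Ezhip was not analysed here. The windows upstream of the RefSeq starts came from RefSeq (GRCm38.p6).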

Additional observations from a re-analysis of the deposited data

Results flagged for a closer look

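In 40 groups of 4 to 10 embryos (10 genes in the groups small enough), the lowest or highest embryo stood apart from the others by Dixon's 95% limit in 2, about the number that chance gives at 1 in 20. The Suz12 level of 1 contralateral twin pair was 142 CPM, the lowest of 6, with the next at 276 and the median at 296 CPM. The Mtf2 level of 1 ipsilateral intact blastocyst was 363 CPM, the lowest of 8, with the next at 535 and the median at 597 CPM. Both embryos stayed in all values of the text.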

How the results depend on the processing

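Of 1179 values of members under the alternatives, 1150 kept their side of the threshold, 24 passed it only under the alternative and 5 no longer passed it. Among the 1150, 42 changed sign, and these were called in neither fit. Of the values called in either fit, 0 reversed. Both stage comparisons kept all members tested, among which Ring1 could only be called as a rise. Contralateral minus equatorial in 2-cell embryos, 0 members called, gave 1 with no filter (Pcgf6), 4 with DESeq2, and 2 each with total count and detected genes as covariates, plate 1 alone, all 62 pairs and the rank-sum test on TPM. Ipsilateral minus equatorial, 1 called, gave 2 with DESeq2, without the plate term, with all 62 pairs and by rank sum (Suz12 and Jarid2), and 0 with the covariates. Twin minus intact, 2 called, gave 3 with RLE factors, library size only, no filter and DESeq2 (Eed added) and after thinning (Jarid2 added). The same comparison gave 0 within equatorial or contralateral ICSI and 4 within ipsilateral ICSI. The cause of these changes was not tested. Sister letters and twin letters gave 0 members called with the replicate block and 0 without it.

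Over all genes, counts moved by over 1.5 times in these cases. For contralateral minus equatorial (1745), they were 3930 with no filter and 1108 under the mitochondrial limit of 2%, and for ipsilateral minus equatorial (902), 2603 with no filter, 123 with covariates and 1442 by rank sum. For contralateral minus ipsilateral (0), they were 1577 with no filter, 97 with DESeq2, 30 with covariates and 1 with all pairs. In twins by site (0), DESeq2 called 11 and 1, and no filter 1, and in intact blastocysts DESeq2 called 1. Twin minus intact (4163) gave 6385 with no filter, 755 within equatorial and 1077 within contralateral ICSI. Intact minus 2-cell (11862) gave 17998 with no filter, 7021 after thinning and 6822 within equatorial ICSI. Twin letters (0) gave 15 with no filter and 1 with DESeq2, the stage interaction (2.81% of genes) gave 0.884% on plate 2 alone, and the distances (18 and 21) gave 33 without the plate term, 2 under the mitochondrial limit, 0 and 1 with all pairs and 0 and 3 by permutation. Depth was lowest in the intact blastocysts, where 3 counts were 4.25 CPM in the median embryo.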
